A study of Rattus norvegicus with 11 samples.

Results

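The acid-sensing ion channels (ASICs) are the 5 genes Asic1, Asic2, Asic3, Asic4 and Asic5. Their older symbols run from Accn1 to Accn5, but the numbers do not match gene for gene. They were found on the array by the RefSeq accession of each probe, which gave 6 probes of 24684: 1 each for Asic1, Asic3, Asic4 and Asic5, and a pair for Asic2. The arrays held RNA of whole trigeminal ganglia (TRG) of male Wistar rats, taken 7 days after complete Freund's adjuvant (CFA), an oil suspension of killed mycobacteria, had been injected under the skin of the whisker pad on 1 side (50 µl at 1 mg/ml). The 6 CFA arrays came from the injected side of rats 1, 2, 3, 5, 6 and 8, and the 5 contralateral arrays from the other side of rats 1, 2, 3, 5 and 6. Arrays of both sides with the same number in their labels were taken to come from the same rat. All 11 ganglia came from CFA-injected animals, and no ganglion of an uninjected or saline-treated rat was among them. The study compared the sides to follow gene expression in a model of orofacial pain.

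ASICs are sodium-permeable channels of the cell surface that open when protons accumulate outside the cell, as they do in inflamed or poorly perfused tissue. They are trimers, made of like or mixed subunits, and belong to the same superfamily as the epithelial sodium channel. In the trigeminal ganglion they lie on sensory neurons, those of the meninges included, where acid excites nerve endings through them. The ASIC3 subunit is the one most associated with pain from tissue acid, and the ASIC1 and ASIC2 subunits combine with it and with each other.

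For Asic2 RefSeq lists 2 transcripts, each with its own probe on this array, and 2 starts that lie 802 kb apart. The windows around both starts are shown because the probes of this gene gave unlike readings. Each is 300 bases long, with 250 before and 50 after the start, taken from RefSeq on the build GRCr8. CG dinucleotides, the sites of DNA methylation in mammals, are in capitals.
Asic2, minus strand, chr10:67438188-67438487: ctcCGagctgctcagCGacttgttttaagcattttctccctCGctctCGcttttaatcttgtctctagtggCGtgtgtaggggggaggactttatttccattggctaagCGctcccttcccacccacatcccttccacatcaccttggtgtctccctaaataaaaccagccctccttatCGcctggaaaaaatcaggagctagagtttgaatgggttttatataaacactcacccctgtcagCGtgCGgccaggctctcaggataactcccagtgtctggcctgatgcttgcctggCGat
Asic2, minus strand, chr10:66636012-66636311: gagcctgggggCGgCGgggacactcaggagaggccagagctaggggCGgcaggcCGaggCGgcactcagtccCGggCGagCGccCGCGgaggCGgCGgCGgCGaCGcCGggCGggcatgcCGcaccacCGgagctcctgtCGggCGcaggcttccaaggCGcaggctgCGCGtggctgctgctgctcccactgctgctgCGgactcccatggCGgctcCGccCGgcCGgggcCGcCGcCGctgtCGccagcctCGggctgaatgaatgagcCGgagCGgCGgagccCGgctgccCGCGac
The window at chr10:67438188-67438487 held 10 CG dinucleotides and 51.0% G or C, and 41.5% of 33469 promoter windows of the same length held at least as many CG. The window at chr10:66636012-66636311 held 40 CG and 78.0% G or C, and only 3.24% of the windows held at least as many. The table does not say which transcript begins at which start, so neither window could be assigned to a probe. The array measured RNA, and methylation was not measured.

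The values below are log2 of the scanner's background-subtracted signal after quantile normalisation across the 11 arrays. They are compared between arrays for 1 probe at a time, since probes bind with unlike strength and the level of one cannot be set against that of another. A probe is called detected where the scanner software marked it well above background. By the study's threshold (limma, unadjusted p of at most 0.05 and an absolute fold change over 2) 498 of 24684 probes passed, 2.02% of all, with 1.15% higher and 0.863% lower in CFA ganglia. No probe had an adjusted p (Benjamini-Hochberg) of at most 0.05, while 10.8% had an unadjusted p of at most 0.05. That count of 0 was 121 without the CFA array of rat 1, 4 and 3 without the contralateral array of rat 3 or of rat 5, 69 under a slide block and 35 under a block for the day of the scan. The arrays lay on 5 slides as judged by scan time, arrays of 1 scan time being taken as 1 slide. Only slide 2 held both sides (CFA rat 1, contralateral rats 5 and 6). All other slides held 1 side each, so between them side and slide cannot be told apart. All contralateral arrays and the CFA array of rat 1 were scanned on the first day, and the other CFA arrays on later days. Side and scan day are thus mixed as well. A block for slide or for scan day compares the sides through the CFA array of rat 1 alone. The slide block therefore gives the same difference as slide 2 by design. Of 11 listed sensory neuron markers 8 were measured, and all 8 were detected on all 11 arrays. Their summed signals were 450208 to 527609 in CFA ganglia and 485612 to 509739 in contralateral ganglia (two-sided exact permutation test, p = 0.253). The brightest markers, Prph, Uchl1 and Tubb3, make up most of that sum, so it says little of the dimmer ones.

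Of the 6 ASIC probes, 5 gave no difference between the sides that passed the threshold. Asic1, Asic3, Asic4 and 1 probe of Asic2 were detected in every ganglion, and of the 16772 probes of which that held 0.733% passed. The remaining probe, that of Asic5, passed the threshold but was not detected on any array. In whole ganglia fewer cells of a type and less RNA per cell cannot be told apart.

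**Figure D1:**
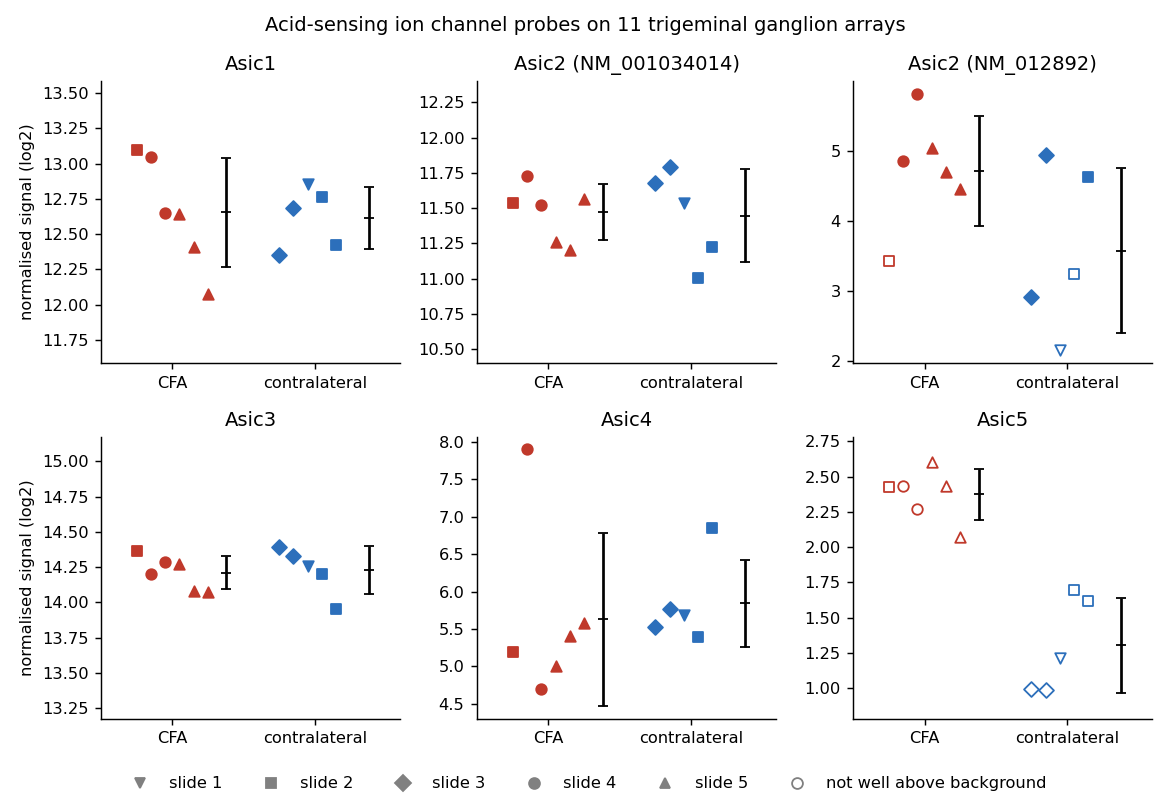
Normalised log2 signal of the 6 ASIC probes on each array, CFA left and contralateral right in each panel, with bars for mean ± SD (n = 6 and 5), marker shapes for slides and open markers where the probe was not well above background. Axes span at least 2 log2 units. The groups overlap for every probe but that of Asic5, whose markers are all open, and 1 array in each group stands apart for Asic4.

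Asic3 encodes the subunit that responds to small drops in pH and keeps a current open while acid persists. Its signal in CFA ganglia was 14.07 at the lowest, 14.24 at the median and 14.36 at the highest. In the contralateral ganglia of rats 1, 2, 3, 5 and 6 it was 14.40, 14.33, 14.26, 14.21 and 13.95. The CFA values lay inside the contralateral range, whose lowest array was that of rat 6. The means were 14.21 ± 0.12 and 14.23 ± 0.17 (SD, n = 6 CFA and 5 contralateral), a log2 fold change of -0.02 ± 0.10 (SE, limma, adjusted p = 0.949). The exact permutation test of the means gave p = 0.857. In this fit without slide the 95% interval of the fold change was 0.850 to 1.15, the narrowest of the 6 probes. With slide as a block the 95% interval of the log2 fold change was -0.08 to 0.65. Of the 5 rats with both sides, 3 had the higher Asic3 signal on the CFA side, and the differences within rats lay between -0.13 and 0.13. Within slide 2 the CFA array was 0.28 above the mean of the contralateral arrays. All 11 arrays spanned 0.44 on the log2 scale, and the SD within groups (0.14) was close to the median of probes of like signal (0.13).

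Asic1 encodes the subunit of the most widespread proton-gated channel of neurons. Its signal ran from 12.08 to 13.10 in CFA ganglia, with a median of 12.65. The contralateral values of rats 1, 2, 3, 5 and 6 were 12.35, 12.68, 12.85, 12.76 and 12.42. The contralateral range lay inside the CFA range, and both the highest and the lowest array were CFA arrays. The means were 12.65 ± 0.39 in CFA and 12.62 ± 0.22 in contralateral ganglia (SD), and the log2 fold change was 0.04 ± 0.19 (SE, limma, adjusted p = 0.941; exact permutation p = 0.851). In this fit without slide the 95% interval of the fold change was 0.772 to 1.37, without a doubling or a halving. With slide as a block the 95% interval of the log2 fold change was -0.21 to 1.22, which includes a doubling. The CFA array of slide 2 read 13.10, those of slide 4 read 13.05 and 12.65, and those of slide 5 read 12.64, 12.41 and 12.08. The part of the slide in this spread was not tested. Within slide 2 the difference between the sides was 0.50 (with slide as a block, limma adjusted p = 0.826). The sides of a rat differed by 0.74 in rat 1 and 0.37 in rat 2, with CFA higher, and by -0.20, -0.12 and -0.01 in rats 3, 5 and 6. The SD within groups was 0.32, against a median of 0.16 for probes of like signal. Repeated spots of other probes of like signal differed by a median SD of 0.091 on 1 array.

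Asic2 encodes subunits that shape the acid sensitivity of mixed channels and of which 1 variant carries no proton-gated current alone. The probe of NM_001034014 was detected on all 11 arrays. It read 11.21 at the lowest, 11.53 at the median and 11.73 at the highest in CFA ganglia. In contralateral ganglia of rats 1, 2, 3, 5 and 6 it read 11.68, 11.80, 11.53, 11.01 and 11.22. The 5 contralateral arrays enclosed the CFA arrays, with the ganglion of rat 2 (slide 3) above all of them and that of rat 5 (slide 2) below. The means were 11.47 ± 0.20 in CFA and 11.45 ± 0.33 in contralateral ganglia (SD), with a log2 fold change of 0.02 ± 0.16 (SE, limma, adjusted p = 0.959; exact permutation p = 0.868) and a 95% interval of the fold change of 0.800 to 1.29. Within slide 2 the difference was 0.42 (with slide as a block, limma adjusted p = 0.773). That block gave a 95% interval of the log2 fold change of -0.04 to 0.89, while the interval of the fold change above is from the fit without slide. In 1 of 5 rats the CFA side was the higher one.

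The probe of NM_012892, the other transcript of Asic2, was close to background. It was detected on 5 of 6 CFA arrays and on 3 of 5 contralateral arrays. In CFA ganglia it read 3.43 at the lowest (rat 1, not detected), 4.77 at the median and 5.81 at the highest (rat 3). The contralateral values of rats 1, 2, 3, 5 and 6 were 2.91, 4.94, 2.15, 3.23 and 4.62, those of rats 3 and 5 not detected. The groups overlapped, with 3 contralateral arrays below every CFA array and the other two among them. The means were 4.71 ± 0.78 in CFA and 3.57 ± 1.18 in contralateral ganglia (SD), and the log2 fold change was 1.14 ± 0.54 (SE, limma, p = 0.0596, adjusted p = 0.476; exact permutation p = 0.0779), with a 95% interval of -0.05 to 2.33. This did not pass the threshold. It passed without the CFA array of rat 1 (1.40), without the contralateral array of rat 2 (1.48) or without that of rat 6 (1.40), with limma adjusted p of 0.261, 0.546 and 0.301. Within slide 2, and hence by design with slide as a block, the sign was the opposite, -0.50. Where the local background was not subtracted the difference was 0.31, and with the normexp correction it was 0.17. The largest difference within a rat was 3.66 (rat 3) and the smallest -0.09 (rat 2), with CFA higher in 4 of 5 rats. The correlation of this probe with the other probe of Asic2 across the 11 arrays was r = 0.04, a description of arrays that share slides. The files and tables at hand do not say which known ASIC2 variant each accession stands for.

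**Figure D2:**
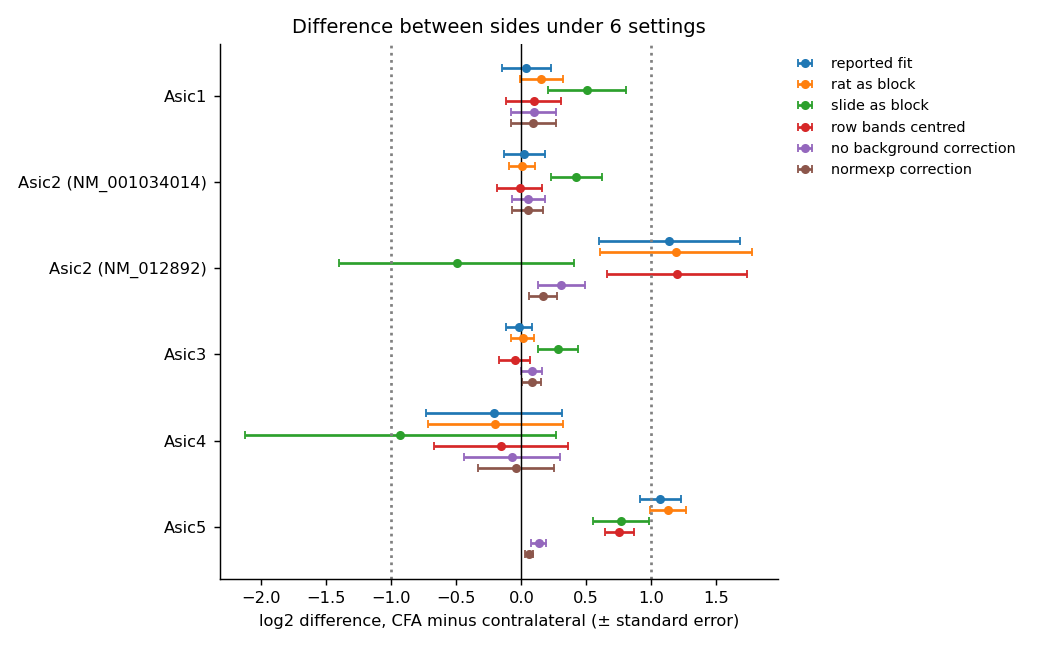
Difference of the log2 signal, CFA minus contralateral (x axis, points with ± SE), for each ASIC probe under 6 ways of processing, with dotted lines at a fold change of 2 in either direction. Asic3 stays between -0.05 and 0.28, the NM_012892 probe of Asic2 runs from 1.195 down to -0.50, and Asic5 is at 0.13 without background correction and at 0.06 with the normexp correction.

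Asic4 encodes a subunit that forms no proton-gated channel on its own. It was detected on all 11 arrays. Its CFA values were 4.70 at the lowest, 5.30 at the median and 7.90 at the highest, and the contralateral values of rats 1, 2, 3, 5 and 6 were 5.52, 5.76, 5.68, 5.39 and 6.85. The CFA ganglion of rat 2 and the contralateral ganglion of rat 6 stood above all others, and the other 9 arrays lay between 4.70 and 5.76. The means were 5.63 ± 1.15 in CFA and 5.84 ± 0.58 in contralateral ganglia (SD), with a log2 fold change of -0.21 ± 0.52 (SE, limma, adjusted p = 0.879; exact permutation p = 0.723). In this fit without slide the 95% interval of the fold change was 0.388 to 1.92, which includes a halving but not a doubling. With slide as a block the 95% interval of the log2 fold change was -3.78 to 1.92, which includes both. Without the CFA array of rat 2 the log2 fold change was -0.67 (limma, adjusted p = 0.515), without the contralateral array of rat 6 it was 0.04, and without both it was -0.42 (limma, adjusted p = 0.369). Within slide 2, and hence by design with slide as a block, it was -0.93 (limma with slide as a block, adjusted p = 0.918). None of these passed the threshold.

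The same 2 arrays carried the most signal of anterior pituitary markers, mostly hormone genes of the gland that lies beside the trigeminal ganglia in the skull. The summed signal of 8 such markers was 307710 in the CFA ganglion of rat 2 and 107393 in the contralateral ganglion of rat 6. It was 4223 to 55087 in the other CFA ganglia and 2857 to 36270 in the other contralateral ganglia. For 6 of the 8 markers these arrays were the highest pair, and 5 of 8 were detected on all 11 arrays. Prl, the prolactin gene, was detected on 5 of 6 CFA and 5 of 5 contralateral arrays, Pou1f1 on 4 and 4, and Fshb on 0 and 2. The summed signal did not separate the sides (exact permutation p = 0.864). Across the 11 arrays Asic4 correlated with the log2 of this sum with r = 0.833 (permutation test, p = 0.000840, adjusted over 8 marker lists 0.00672) and Spearman's rho = 0.745 (permutation p = 0.0108, adjusted 0.0862). The permutations here and below treat the arrays as exchangeable, though arrays share slides, scan days and rats. The lists were chosen with earlier results of these data known, so these p-values are descriptive. Without the 2 arrays farthest from the median sum (CFA rat 2, contralateral rat 1) r was 0.834, and without CFA rat 2 and contralateral rat 6 it was 0.517. Among the 6 arrays of the first scan day, the contralateral array of rat 6 included, r was 0.836 (exact permutation p = 0.0181) and rho 0.771 (exact p = 0.103). No other day held 6 arrays. For the 7 other lists r lay between -0.15 and 0.37 over all 11 arrays. Without CFA rat 2 and contralateral rat 6 the skeletal muscle list had the highest r of the 8 lists (0.713), and without the 2 arrays farthest from each list's median r was 0.611 for Schwann cells and 0.510 for macrophages. The part of pituitary RNA in the Asic4 signal was not tested.

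**Figure D3:**
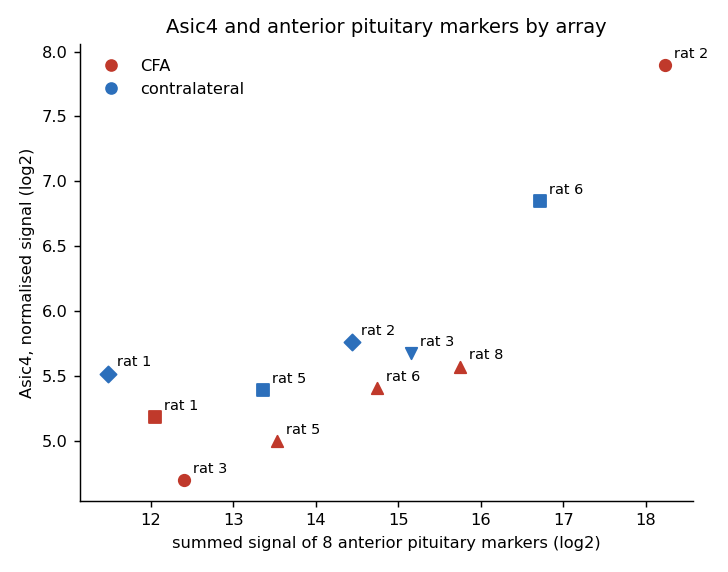
Normalised log2 signal of Asic4 (y axis) against the log2 of the summed signal of 8 anterior pituitary markers (x axis), 1 point an array, coloured by side, shaped by slide as in the plot of the 6 probes and labelled by rat. The CFA ganglion of rat 2 (7.90) and the contralateral ganglion of rat 6 (6.85) lie at the upper right, apart from the other 9 arrays.

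Asic5 encodes a channel of the family that is gated by bile acids rather than by protons in rodents. Its probe was well above background on 0 of 11 arrays. The CFA signals were 2.07 at the lowest, 2.43 at the median and 2.60 at the highest, and the contralateral signals of rats 1, 2, 3, 5 and 6 were 0.99, 0.99, 1.21, 1.70 and 1.62. Every CFA array lay above every contralateral array, which held for 0.527% of all probes, so all 5 rats necessarily had the higher signal on the CFA side. The means were 2.37 ± 0.18 and 1.30 ± 0.34 (SD, n = 6 CFA and 5 contralateral). The difference of 1.07 ± 0.16 (SE, limma, p = 2.89e-05, adjusted p = 0.0924) passed the study's threshold, and the exact permutation p of 0.00216 is the smallest that 6 against 5 arrays can give. On neither side was the probe well above background on any array, so the difference is not given as a fold change in RNA. Of the 2909 probes that were never well above background, 0.447% passed the threshold.

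The raw readings of the Asic5 spot were 37.0 to 45.0 scanner units in CFA ganglia and 27.0 to 38.0 in contralateral ganglia, before any background was taken off. The median of the 153 negative control spots, which are designed to match no rat transcript, was itself 28.0 to 35.0 on CFA arrays and 23.0 to 30.0 on contralateral arrays. Above that median the Asic5 spot read 9.0, 8.0, 7.5, 10, 9.0 and 6.5 units in the CFA ganglia of rats 1, 2, 3, 5, 6 and 8, and 3.5, 3.0, 4.0, 7.0 and 8.0 units in the contralateral ganglia of rats 1, 2, 3, 5 and 6. The groups overlapped on this scale (means 8.33 and 5.10 units, exact permutation p = 0.0216), and the contralateral ganglia of rats 5 and 6, on the slide with CFA rat 1, were the ones within the CFA range. Between 0 and 9 of the 153 negative controls read at least as high as Asic5 on CFA arrays, and 4 to 18 on contralateral arrays. The scanner software's own error was 23.6 to 83.9% of the processed signal on CFA arrays and 83.2 to 99.9% on contralateral arrays. Where the local background was not subtracted, the difference between the sides was 0.13, and with the normexp correction it was 0.06. The spot lies in row 76 of 532, in the first of 4 bands of rows. Of the 4065 probes with a single spot in that band 4.43% passed as higher in CFA ganglia and 0% as lower, against 0.202% and 3.86% in the last band. With each band of rows centred the Asic5 difference was 0.75, and within slide 2 it was 0.77.

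**Figure D4:**
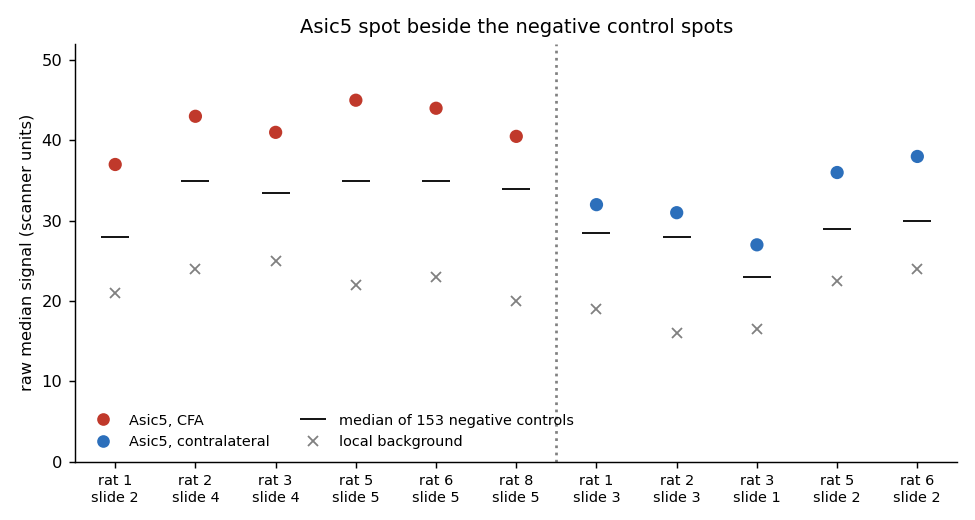
Raw median signal of the Asic5 spot (points, scanner units) on each array, CFA left and contralateral right of the dotted line, with the median of 153 negative control spots (bars) and the local background around the spot (crosses). The Asic5 points stand 6.5 to 10 units above the control median in CFA ganglia and 3.0 to 8.0 units above it in contralateral ganglia, and the control median is itself higher on the arrays of slides 4 and 5.

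Each ASIC probe that was detected on all arrays was set beside 11094 other genes detected on all arrays, by Pearson's r over the 11 arrays. These are descriptions of arrays that share slides and side, and are given without a test. Asic1 was most like Slc29a2, a nucleoside transporter (r = 0.964), Caskin1, a synaptic scaffold protein (0.934), and Insyn1, a protein of inhibitory synapses (0.931). Asic2 (NM_001034014) was most like Mvd, an enzyme of sterol synthesis (0.903), Slfn9 (0.890) and Serpinb12 (0.888). Asic3 was most like Ttll1, a tubulin-modifying enzyme (0.905), Taf5l1 (0.884) and Usp12, a deubiquitinase (0.880). Asic4 was most like Serpina3c, a protease inhibitor (0.947), Dlk1 (0.942) and Ghrhr, the receptor through which the pituitary answers growth hormone-releasing hormone (0.934). Between the ASICs detected on all arrays, r ran from -0.39 (Asic3 and Asic4) to 0.495 (Asic2 and Asic3), and it was 0.47 between Asic1 and Asic3.

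The genes that work with ASICs or sense and move protons beside them gave 1 call in 37 measured genes of 47 listed. By the same threshold 2.18% of all 13903 named genes passed. None of the 37 was higher, 1 was lower, and the median log2 fold change was -0.01, against -0.05 over all named genes. Of the other channels of the superfamily, 0 of 2 measured passed (median -0.07). The gene with the smallest p was Scnn1a, the alpha subunit of the epithelial sodium channel, at 6.77 ± 0.08 in CFA and 6.49 ± 0.38 in contralateral ganglia (SD, limma p = 0.1002, exact permutation p = 0.0152). Its contralateral mean rested on rat 3, at 5.82, while the other 4 contralateral ganglia lay between 6.61 and 6.74 and the CFA ganglia between 6.65 and 6.86.

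Of the other proton sensors, which include the capsaicin receptor and the acid-activated G protein-coupled receptors, 0 of 7 measured passed (median -0.01). Pacc1, a chloride channel opened by protons, had the smallest p, with 11.51 ± 0.22 in CFA and 11.81 ± 0.24 in contralateral ganglia (SD, limma adjusted p = 0.469, exact permutation p = 0.0606), and within slide 2 the sign was the opposite (0.25). Among the ASIC partners and modulators 0 of 13 passed (median -0.04). S100a10, an adaptor that brings channels to the cell surface, averaged 16.14 ± 0.22 in CFA and 15.83 ± 0.19 in contralateral ganglia (SD), a log2 fold change of 0.31 ± 0.13 (SE, limma adjusted p = 0.440, exact permutation p = 0.0368). Within slide 2 that difference was -0.03.

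Of the inflammatory signals known to act on ASICs 0 of 6 measured passed (median 0.04). F2rl1, the receptor of tryptase and trypsin, averaged 8.77 ± 0.18 in CFA and 9.14 ± 0.22 in contralateral ganglia (SD), a log2 fold change of -0.38 ± 0.12 (SE, limma p = 0.0120, adjusted p = 0.389; exact permutation p = 0.00433). Only the highest CFA value (8.93) reached above the lowest contralateral value (8.92), and within slide 2 the difference was -0.09. Of the genes of acid transport and buffering 1 of 9 passed, as lower (median -0.09). This was Car12, a carbonic anhydrase of the cell surface, detected on 0 of 6 CFA arrays and 2 of 5 contralateral arrays. Its signals were 0.98 to 1.39 in CFA ganglia, against 3.40, 3.13, 1.46, 1.42 and 1.96 in the contralateral ganglia of rats 1, 2, 3, 5 and 6 (limma p = 0.00768, adjusted p = 0.339; exact permutation p = 0.00216). The contralateral mean of 2.27 lay below the lowest signal that counted as detected on the CFA arrays (3.26 on average), so no fold is given. The detected pair, rats 1 and 2, were the arrays of slide 3, and within slide 2 the difference was -0.43.

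**Figure D5:**
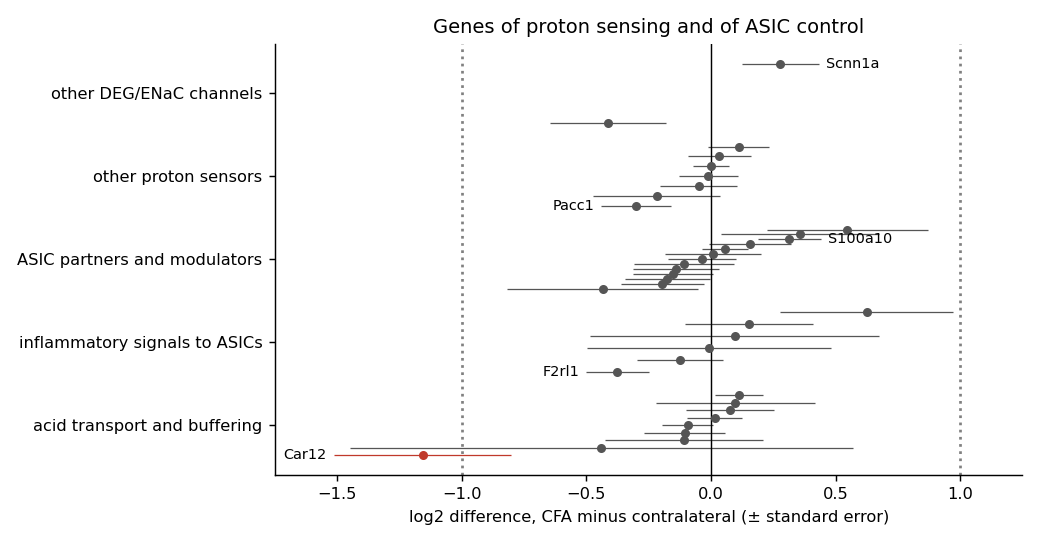
Log2 difference, CFA minus contralateral (x axis, ± SE), of the 37 measured genes in 5 lists, 1 point a gene, with dotted lines at a fold change of 2 in either direction. The gene past the study's threshold (Car12, red) and the gene with the smallest p of each other list are named, and all other points lie between the dotted lines.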

How the data were processed

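The authors deposited 1 scanner file for each of the 11 single-colour arrays (Agilent Feature Extraction 11.0.1.1) and a table of probe intensities that were quantile normalised with limma. The deposited intensity values of the scanner files are linear, have a spatially detrended background subtracted and a floor on low values, and had not been normalised between arrays. The other ganglia of the study were not analysed here.

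Log2 of the processed signal was taken, spots with an outlier mark (1.38%) were set to missing, and the 42136 non-control spots were quantile normalised. Spots of a probe were averaged (24684 probes), and each ASIC probe has 1 spot. All probes were fitted with limma 3.58.1 in R 4.3.3 without covariates or pairing, since the study's methods give limma and name neither, and p-values were adjusted over all of them. For single probes the difference of means was set against all 462 splits of the arrays (exact permutation test, two-sided). The procedure was tested on simulated data. Python 3.11.15, pandas 2.3.3, numpy 2.4.6 and matplotlib 3.10.9 were used for tables and figures. The number of arrays limits the precision. Each p-value sets a difference against the spread between these arrays, in which ganglion, slide and scan day are mixed.

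Accessions were named through a RefSeq table of GRCr8, used for names and promoter windows only, since the file headers give rn4 (14274 of 15323 mRNA probes matched). A gene with several probes was read from its brightest one. The text names every ASIC probe, from each list the genes past the threshold or else the gene with the smallest p, and the 3 genes most like each detected ASIC. The marker lists were anterior pituitary, sensory neurons, macrophages, Schwann cells, red blood cells, satellite glia, skeletal muscle and central nervous system. The result of 1 marker gene is not reported here. The members and lists were chosen with earlier results of these data known.

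The labels number the arrays of each side, and equal numbers were taken to stand for the same animal, which the labels do not state. With group means removed, the correlation across probes of the sides was -0.05, -0.08, -0.03, -0.01 and 0.13 in rats 1, 2, 3, 5 and 6, over 0.1 in 1 of 5. In 0 of 5 was a CFA array most like the contralateral array of its own number. The fit was not paired. The alternatives were scaling to the 75th percentile, normexp or no background correction (from the raw median signal, the only raw signal column at hand), a floor of 10, all spots kept, the authors' table, a filter on dim probes, an intensity trend, rat, slide or scan day as a block, rat or slide as a random effect, centred row bands, the mean of a gene's probes, and each array left out.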

Additional observations from a re-analysis of the deposited data

Results flagged for a closer look

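In 22 groups of arrays (the ASIC probes and the named list genes, each side), 3 had an array whose gap to the nearest other was large for its group by Dixon's criterion, which chance gives in about 1 in 20 groups. Asic4 read 7.90 in the CFA ganglion of rat 2, and the gap was 0.727 of the range of the 6 CFA arrays. Asic4 also read 6.85 in the contralateral ganglion of rat 6, with a gap of 0.743 of the range of the 5 contralateral arrays. Scnn1a read 5.82 in the contralateral ganglion of rat 3, with a gap of 0.861 of the range.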

How the results depend on the processing

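No alternative brought Asic1, Asic3, Asic4 or the NM_001034014 probe of Asic2 past the study's threshold, and differences near 0 changed sign. Asic1 was -0.030 with 75th percentile scaling, -0.089 without both arrays of high pituitary signal, 0.50 within slide 2, and -0.050 to 0.15 with each array left out. The NM_001034014 probe of Asic2 was -0.017 with 75th percentile scaling, -0.012 with row bands centred, -0.085 without both arrays of high pituitary signal, 0.42 within slide 2, 0.58 when averaged with the gene's other probe, and -0.087 to 0.11 with each array left out. Asic3 was 0.079 with normexp as well as without background correction, 0.28 with slide as a block and within slide 2, 0.13 with scan day as a block, 0.067 with slide as a random effect, and -0.087 to 0.024 with each array left out. Asic4 was -0.93 within slide 2 and with a slide block, -0.65 with a block for scan day, and -0.67 to 0.039 with each array left out. The NM_012892 probe of Asic2 was -0.50 within slide 2 as well as with slide as a block, -0.14 with a block for scan day, 0.78 to 1.48 with each array left out, and passed the threshold with 75th percentile scaling (1.12) and with row bands centred (1.195). That probe was at 0.17 with normexp, 0.31 without background correction and 0.79 with the floor of 10. The Asic5 difference was 0.058 with normexp, 0.13 without background correction, 0 with the floor of 10 (all its signals are below it), 0.77 with slide as a block and within slide 2, 0.75 with row bands centred, and 0.99 to 1.17 with each array left out, under the fold limit without contralateral rat 1 or rat 2, with limma adjusted p of 0.0346 (without CFA rat 1) to 0.245. The filter on dim probes removed Asic5 and the NM_012892 probe. The count of 498 probes past the threshold was 16 with normexp, 47 without background correction, 191 with the floor, 288 with the dim filter, 233 with slide as a random effect, and 330 to 796 with each array left out. Slide as a random effect, both pituitary-rich arrays left out and the raw median signal for the background corrections were chosen after seeing the data. With the rat as a replicate block no ASIC call changed: Asic1 was 0.15, Asic2 0.0036 (NM_001034014) and 1.19 (NM_012892), Asic3 0.011, Asic4 -0.20 and Asic5 1.13, and 370 probes passed. The causes of these differences were not tested. Signals near background limit Asic5 and the NM_012892 probe.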
